A study of Mus musculus with 33 samples.

Results

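The genes described are 56 DNA repair genes out of 38355 genes in the count files of the CA1 region of the mouse hippocampus. They were chosen as a list of named genes, with earlier results of these data known, and grouped by the repair pathway in which each is best known. They were split into 14 genes of base excision and single-strand break repair, 10 of nucleotide excision repair, 4 of mismatch repair, 7 of double-strand break sensing and signalling, 8 of homologous recombination, 7 of end joining, and 6 of Fanconi repair and translesion synthesis. All 56 were found in the counts of aged mice, and 55 had a locus in the FPKM tables of young mice, where Fanca had none.

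RNA was sequenced from CA1 in 2 experiments. The aged animals were 8 to 10 months old and comprised 6 APP mice given JQ1, 6 APP mice given vehicle and 4 WT mice given vehicle with values, all injected i.p. for 10 days. The young animals were 3-month-old C57B/6JRj mice, 8 given JQ1 and 8 given vehicle for 13 days. JQ1, a small molecule that displaces BET bromodomain proteins from acetylated histones, was given at 50 mg/kg, and the vehicle was 10% DMSO. APP mice were of the APP/PS1-21 line on a C57B/6 background, in which the neuronal Thy1 promoter drives the transgenes, mutant human APP among them. The labels name this line as the strain of the aged WT mice too, whereas their titles call them WT, and 1 more aged WT mouse, replicate 2, was not analysed here. In both experiments, per the methods, the mice for RNA sequencing were killed after the probe test of the water maze. The methods state that female APP/PS1-21 mice were used for behaviour and that young C57Bl/6j mice were bought as males. Age, strain, sex and treatment length thus all differ between the experiments and cannot be told apart.

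DNA repair is divided by the lesion. Base excision repair removes small damaged bases through glycosylases and then seals the nick, nucleotide excision repair cuts out bulky lesions with the help of the helicases of TFIIH, and mismatch repair corrects mispaired bases after replication. Double-strand breaks are sensed by kinases such as ATM and joined either end to end or by copying a sister chromatid, and the Fanconi pathway and translesion polymerases deal with crosslinks and stalled forks. Neurons do not divide, so they depend mainly on excision repair, single-strand break repair and end joining, and inherited defects in several of these genes cause neurodegeneration.

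Gene reads per aged library ranged from 14605459 to 25339482, and 3 reads corresponded to 0.118 to 0.205 CPM (counts scaled to the same library total). The library labelled JQ1-treated APP replicate 4 went against its label. Its App level was 1781 CPM and its Thy1 level 820 CPM, against at least 2070 CPM and 1618 CPM in every other APP library and at most 1992 CPM and 1070 CPM in WT libraries. Cst7, a gene of plaque-associated microglia, had no read there, as against 13.7 to 55.6 CPM in the other APP libraries. The numbers of members called, the called members and the relation to GC content are given with this library, as labelled, and without it, and other values include it unless stated. WT replicate 4 stood apart by Ttr, a choroid plexus gene, with a summed level of 4 choroid plexus markers of 3147 CPM against at most 141.7 CPM in all other aged libraries.

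Because the members that differed under JQ1 included 4 with a RefSeq promoter window, these sequences are shown here from 250 bases before the RefSeq start up to the first start in either annotation (GRCm38.p6, 5′ to 3′ on the strand of the gene). Atm lies on chr9:53536741-53536921 (minus strand), Atr on chr9:95857347-95857596 (plus strand), Atrx on chrX:105929404-105929622 (minus strand), and Ercc2 on chr7:19381767-19382009 (plus strand). Capitals mark matches to 6 motifs searched on both strands, namely the E-box CACGTG, the CCAAT box CCAAT, the GC box GGGCGG, the ETS motif CCGGAAG, the cyclic AMP response element TGACGTCA and the TATA box TATAAA.
Atm: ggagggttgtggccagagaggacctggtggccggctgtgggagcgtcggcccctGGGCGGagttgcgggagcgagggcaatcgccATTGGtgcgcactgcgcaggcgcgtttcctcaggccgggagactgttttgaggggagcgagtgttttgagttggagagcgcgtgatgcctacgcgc
Atr: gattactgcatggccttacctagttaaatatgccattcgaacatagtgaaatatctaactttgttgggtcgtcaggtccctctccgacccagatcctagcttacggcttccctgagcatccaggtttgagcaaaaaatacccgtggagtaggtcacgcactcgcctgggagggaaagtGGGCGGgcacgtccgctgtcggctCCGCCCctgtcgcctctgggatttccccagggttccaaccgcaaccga
Atrx: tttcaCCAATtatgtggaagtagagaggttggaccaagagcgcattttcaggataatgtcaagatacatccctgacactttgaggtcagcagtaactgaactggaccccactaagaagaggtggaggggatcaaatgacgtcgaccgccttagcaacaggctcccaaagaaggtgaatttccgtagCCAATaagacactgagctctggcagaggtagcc
Ercc2: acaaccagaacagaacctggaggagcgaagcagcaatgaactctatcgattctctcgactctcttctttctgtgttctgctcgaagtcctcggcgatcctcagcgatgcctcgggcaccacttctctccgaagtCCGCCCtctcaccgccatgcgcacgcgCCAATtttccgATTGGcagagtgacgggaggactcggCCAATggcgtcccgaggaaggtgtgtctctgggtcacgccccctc

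In the full windows of 300 bases, Atm had a GC content of 64.0%, Ercc2 58.7%, Atr 57.3% and Atrx 50.3%. Windows were given for 42 of the 56 members, with a median GC content of 60.0% and a median of 23.5 CpG sites, against 52.7% and 7 over 27025 promoters. A GC box was found in 29 of the 42 member windows (35.9% of all promoters), a CCAAT box in 22 (37.9%), an ETS motif in 10 (9.12%), an E-box in 8 (7.24%), a TATA box in 3 (14.2%) and a cyclic AMP response element in 1 (1.88%). No motif was shared by all 4 full windows, parts of which are printed above, and that of Atrx, with 4 CCAAT boxes, held no GC box. These are matches of letters and not binding sites.

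The repair genes were expressed over a wide range in CA1 of aged vehicle-treated WT mice, here given as CPM per kb of the union of exons. Ddb1, the adaptor of the CUL4 ubiquitin ligase that recognises UV lesions, was the highest at 43.3 ± 4.68 (SD, n = 4). It was followed by Parp1, the main sensor of strand breaks, at 30.5 ± 2.63, and these levels lay apart by more than their spread. On this scale the levels of Polb, the gap-filling polymerase of base excision repair (13.7 ± 0.906), Apex1, the endonuclease of abasic sites (13.1 ± 1.62), and Ercc3, a helicase of TFIIH (12.8 ± 0.624), lay within their spread of each other. The union of exons of Polb has 3940 bases and its longest coding transcript 1201, against 1422 and 1239 for Apex1 and 2835 and 2708 for Ercc3. In young vehicle-treated mice the FPKM were 28.0 ± 1.74 for Polb, 24.5 ± 2.41 for Parp1, 19.9 ± 1.76 for Apex1 and 12.9 ± 1.33 for Ercc3. Such ranks therefore depend on the length used.

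**Figure D1:**
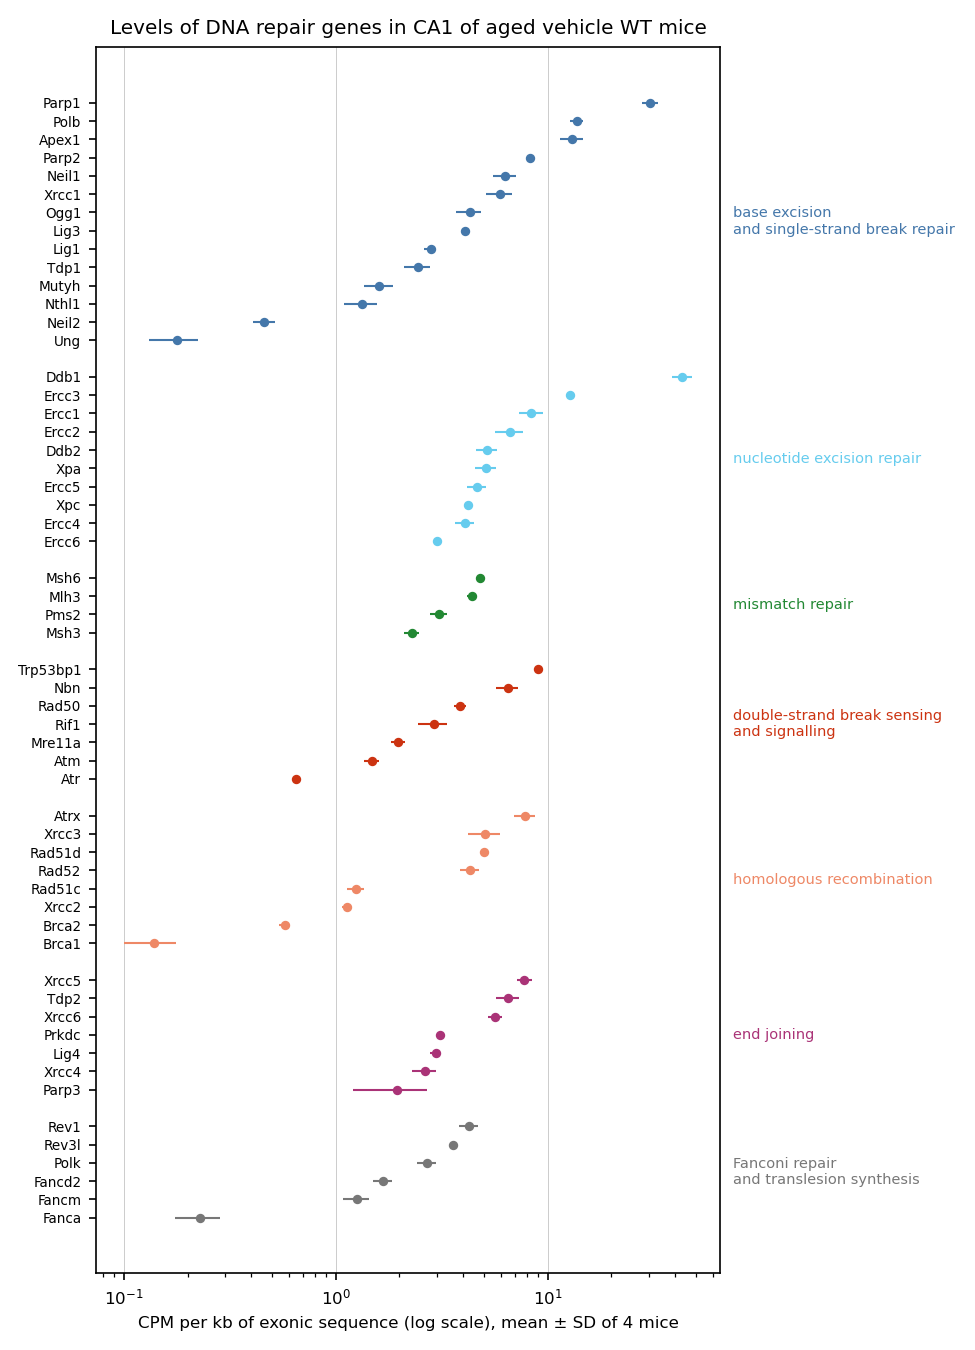
Level of each of the 56 repair genes in vehicle-treated aged WT mice, as CPM per kb of exonic sequence on a log axis, mean ± SD of 4 mice, coloured and grouped by pathway. Ddb1 and Parp1 lie highest, at 43.3 and 30.5, and Brca1 and Ung lowest, at 0.138 and 0.178.

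In the other pathways the highest level belonged to Msh6 in mismatch repair (4.81 ± 0.143), Trp53bp1, the chromatin reader 53BP1, in break signalling (9.04 ± 0.234), Atrx in homologous recombination (7.83 ± 0.898), Xrcc5, the Ku80 subunit, in end joining (7.78 ± 0.621) and Rev1, a scaffold of translesion polymerases, in the last group (4.25 ± 0.444). The lowest were Brca1 at 0.138 ± 0.0377, Ung, the uracil glycosylase, at 0.178 ± 0.0464, and Fanca at 0.230 ± 0.0556 per kb. On this scale Brca1 and Ung did not differ beyond their spread. The union of exons of Ung has 5468 bases and its longest coding transcript 2136, against 8533 and 6572 for Brca1. In young vehicle-treated mice the FPKM were 0.785 ± 0.138 for Ung and 0.223 ± 0.0340 for Brca1. The level of Atr, 0.650 ± 0.0229, is divided by 23629 bases of exons, whereas its longest coding transcript has 8102 bases.

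The first comparison asked what JQ1 changed in APP mice. Of the 56 members 5 were higher and 1 was lower in JQ1-treated than in vehicle-treated APP mice (edgeR quasi-likelihood test, Benjamini-Hochberg adjusted p under 0.05 over 16962 genes), while 1.08% of all genes passed (0.619% higher and 0.466% lower). The genes that rose were the checkpoint kinases Atm and Atr, the end-protection factor Rif1, the chromatin remodeller Atrx and Rev3l, the catalytic subunit of translesion polymerase zeta. Ercc2, which encodes the XPD helicase of TFIIH, fell. The paper also lists all 6 as changed by JQ1 in APP mice. It lists the members Prkdc and Mlh3 as well, which did not pass here by edgeR. The members were chosen with earlier results of these data known. Their share of calls beside that of all genes is therefore not an independent result. The JQ1 and vehicle samples did not overlap for 4 members that were higher (0.878% of all genes) and 1 that was lower (1.15%). Without the library labelled JQ1-treated APP replicate 4, 4 members (Atm, Atr, Atrx and Rev3l) were higher and 0 lower, with 0.431% of genes passing. DESeq2, which called 749 genes in all where edgeR called 184, called 9 members, the same 6 with Mlh3, Prkdc and Mutyh. When each of the 16 aged libraries was left out in turn, Atm, Atrx and Rev3l were called in all 16 fits, Atr in 12, Rif1 in 10 and Ercc2 in 8. Atr was lost without JQ1-treated APP replicate 2, 3 or 6 or vehicle-treated APP replicate 3, Rif1 without JQ1 replicate 2, 3 or 4 or vehicle replicate 3, 4 or 6, and Ercc2 without JQ1 replicate 2, 3, 4 or 6, vehicle replicate 3, 4 or 5 or WT replicate 4.

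The median log2 fold change of the members was 0.04, against -0.001 over all genes tested, with 32 members above 0 and 24 below. An unadjusted p under 0.05 (edgeR) was reached by 17 of 56 members, which is above the 17.6% of all genes (2987 of 16962). Because the members were chosen with earlier results of these data known, this share is not an independent result either. CA1 pieces hold many cell types, and in these bulk samples fewer cells of a type and less RNA per cell cannot be told apart. Of 46 marker genes tested in 10 lists of CA1 pyramidal neurons, interneurons, glia, vessels, choroid plexus, dentate gyrus and dividing cells, 0 passed in either direction in this comparison. The share of uniquely mapped reads outside genes had a median of 21.4% in JQ1-treated APP mice (16.9 to 26.9%) and 18.6% in vehicle-treated APP mice (15.4 to 24.5%), and its part in the results was not tested.

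Atm (ENSMUSG00000034218, mm10 chr9:53439149-53536740), the kinase that opens the response to double-strand breaks, changed most. Its levels in JQ1-treated APP mice were 20.3, 22.8, 22.5, 22.9, 24.1 and 18.7 CPM, in vehicle-treated APP mice 13.6, 16.3, 9.70, 13.3, 13.2 and 13.3 CPM, and in vehicle-treated WT mice 15.3, 17.1, 14.8 and 14.2 CPM. Every JQ1 sample lay above every vehicle sample of either genotype. The log2 fold change between the APP groups was 0.73 ± 0.11 (SE, adjusted p = 0.00420 by edgeR), or 0.72 ± 0.12 (adjusted p = 0.0127) without replicate 4.

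Atr (mm10 chr9:95857597-95951781), the sister kinase that answers to single-stranded DNA, was measured at 19.7, 20.8, 21.0, 17.4, 19.5 and 22.3 CPM under JQ1 and at 15.2, 13.7, 14.9, 11.7, 15.2 and 17.0 CPM under vehicle in APP mice. The APP groups did not overlap, although the JQ1 sample labelled replicate 4 lay close to the highest vehicle sample. The log2 fold change was 0.46 ± 0.10 (edgeR, adjusted p = 0.0250), and 0.50 ± 0.10 (adjusted p = 0.0235) without replicate 4. The exons of Atr overlap those of the antisense genes 1700065D16Rik and Gm16794, and no strand setting of the counting was given in the sources used here.

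Rif1 (mm10 chr2:52072832-52122383), which acts with 53BP1 to limit the trimming of broken ends, had 32.9, 37.7, 45.3, 42.1, 36.9 and 29.6 CPM in JQ1-treated and 24.7, 29.9, 18.6, 23.9, 27.3 and 23.8 CPM in vehicle-treated APP mice. The groups met at their edges, since the lowest JQ1 sample lay just below the highest vehicle sample. The log2 fold change was 0.60 ± 0.12 (edgeR, adjusted p = 0.0250). Without replicate 4 it was 0.56 ± 0.13 with an adjusted p of 0.0652, which no longer passed.

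**Figure D2:**
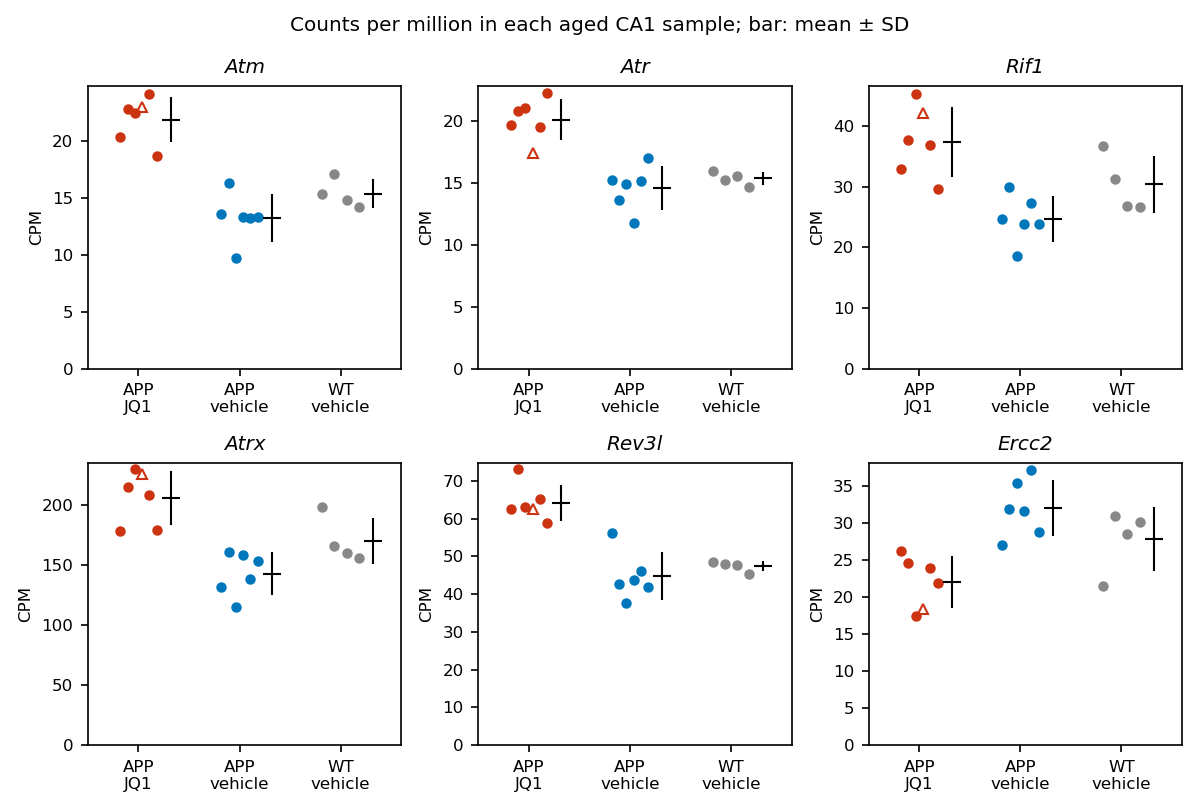
CPM of the 6 members that passed the test, in each aged CA1 sample (points), with mean ± SD of the group (bars); the open triangle is the library labelled JQ1-treated APP replicate 4. For Atm, Atr, Atrx and Rev3l each JQ1 point lies above each point of the vehicle-treated APP mice, for Ercc2 each lies below, and for Rif1 the groups meet between 29.6 and 29.9 CPM.

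The other 4 genes of break sensing and signalling, Nbn, Rad50, Mre11a and Trp53bp1, did not pass. The 7 log2 fold changes of the group were all above 0, with 3 called and a median of 0.15, and the smallest was that of Trp53bp1 at 0.04 ± 0.10 (edgeR, adjusted p = 0.882). Nbn, a subunit of the MRN complex that recruits ATM, had 19.7 ± 2.48 CPM under JQ1 and 17.7 ± 1.40 CPM under vehicle (SD, n = 6 each; adjusted p = 0.441 by edgeR). When the counts were corrected for gene GC content, Trp53bp1 turned to -0.03 and Mre11a to -0.007, with Nbn at 0.01 and Rad50 at 0.03.

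Atrx (mm10 chrX:105797615-105929403), a chromatin remodeller that loads the histone variant H3.3, stood at 179, 215, 230, 226, 208 and 179 CPM in JQ1-treated and at 132, 161, 115, 159, 138 and 153 CPM in vehicle-treated APP mice. All JQ1 samples were above all vehicle samples of APP mice. The log2 fold change was 0.53 ± 0.10 (edgeR, adjusted p = 0.0114; 0.0321 without replicate 4). The WT samples, at 199, 166, 160 and 156 CPM, overlapped both APP groups.

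In the rest of homologous recombination 0 members passed. The median of the 8 log2 fold changes of the pathway was -0.003 and took either sign when single libraries were left out, from -0.04 without vehicle-treated APP replicate 6 to 0.07 without vehicle-treated APP replicate 1 (0.05 without JQ1-treated APP replicate 4). Xrcc3, which acts in strand exchange, had the lowest, with 12.5 ± 3.83 CPM under JQ1 and 16.8 ± 2.09 CPM under vehicle (-0.42 ± 0.17, adjusted p = 0.222 by edgeR). Brca2, a mediator of strand invasion, had 8.83 ± 1.06 and 8.04 ± 1.24 CPM, and Brca1 1.64 ± 0.614 and 1.63 ± 0.676 CPM.

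Rev3l (mm10 chr10:39732118-39875211) measured 62.5, 73.1, 63.1, 62.4, 65.2 and 58.9 CPM in JQ1-treated and 56.3, 42.8, 37.6, 43.6, 46.1 and 41.8 CPM in vehicle-treated APP mice. The groups did not overlap, and the vehicle sample nearest to the JQ1 samples was replicate 1. The log2 fold change was 0.52 ± 0.08 (edgeR, adjusted p = 0.00542), and 0.53 ± 0.09 (adjusted p = 0.0131) without replicate 4. Of the other members of the Fanconi and translesion group, 4 had log2 fold changes above 0 and Fancd2, the central ubiquitinated protein of the Fanconi pathway, had the lowest at -0.18 ± 0.19 (edgeR, adjusted p = 0.651), which turned to 0.02 without vehicle-treated APP replicate 1. In both APP groups replicate 1 was far above the rest for Fancd2, at 19.6 and 23.5 CPM.

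Ercc2 (mm10 chr7:19382010-19395694) was the member that fell, with 26.2, 24.5, 17.4, 18.4, 23.9 and 21.8 CPM in JQ1-treated and 27.0, 31.9, 35.4, 31.6, 37.2 and 28.8 CPM in vehicle-treated APP mice. The highest JQ1 sample and the lowest vehicle sample, both replicate 1, lay close together but the groups did not overlap. The log2 fold change was -0.54 ± 0.12 (edgeR, adjusted p = 0.0367), and -0.48 ± 0.12 (adjusted p = 0.0918) without replicate 4, which did not pass. Exons of Ercc2 overlap Klc3 and the antisense gene Gm26852 on the opposite strand, so its counts are uncertain.

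In nucleotide excision repair Ercc2 was the one call among 10 members, with 5 above and 5 below 0. Ercc1, the partner of the nuclease XPF, had 24.9 ± 3.28 CPM under JQ1 and 30.2 ± 3.71 CPM under vehicle (-0.28 ± 0.11, edgeR adjusted p = 0.188). Ercc3, the other TFIIH helicase, had the highest log2 fold change of the group at 0.13 ± 0.07 (adjusted p = 0.384). Ddb1 stood at 272.7 ± 21.1 and 265.7 ± 10.9 CPM.

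In base excision and single-strand break repair 0 of 14 members passed, 11 lay below 0 and the median log2 fold change was -0.12, or -0.07 with 11 below 0 without the library labelled JQ1-treated APP replicate 4. Neil2, a glycosylase for oxidised bases, had the lowest value, with 2.23 ± 0.601 CPM under JQ1 and 3.39 ± 0.785 CPM under vehicle (-0.60 ± 0.21, edgeR adjusted p = 0.148). Mutyh, the glycosylase that removes adenine opposite oxidised guanine, had the smallest adjusted p of the group (0.108) and was chosen after its values were seen. It had 2.87 ± 0.476 and 4.19 ± 0.605 CPM. Xrcc1, the scaffold of single-strand break repair, had 31.1 ± 3.03 and 37.3 ± 2.78 CPM (adjusted p = 0.148), and Tdp1, which frees trapped topoisomerase I, had the highest log2 fold change of the group at 0.24 ± 0.10 (adjusted p = 0.248). The median gene GC content of the pathway was 53.1%, against 44.4% in break signalling and 50.1% over all genes tested. With a correction for gene GC content, Apex1 (0.02), Lig1 (0.04), Nthl1 (0.05) and Ung (0.08) joined Lig3, Parp2 and Tdp1 above 0.

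**Figure D3:**
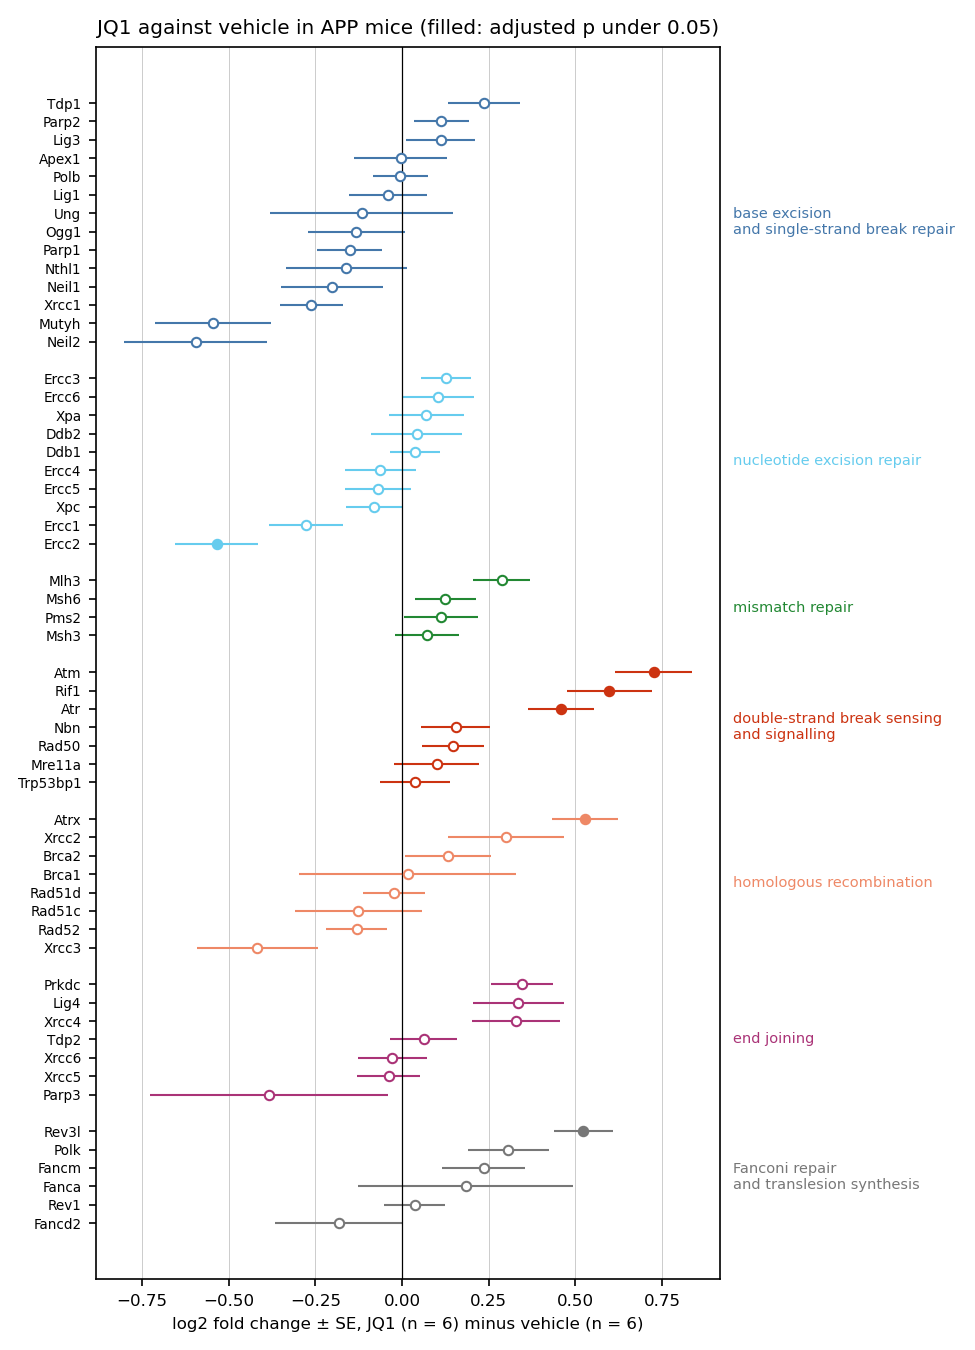
Log2 fold change ± SE of the 56 repair genes in APP mice, JQ1 minus vehicle (n = 6 each), grouped by pathway; filled points had an adjusted p under 0.05. Break signalling lies above 0 throughout, whereas 11 of 14 genes of base excision and single-strand break repair lie below it. Median gene GC content is 44.4% in the former and 53.1% in the latter. With the GC correction, not shown here, Trp53bp1 (-0.03) and Mre11a (-0.007) turn below 0, and Apex1, Lig1, Nthl1 and Ung turn above it.

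Mismatch repair and end joining held 0 calls. All 4 mismatch repair members lay above 0 (Msh3 turned from 0.07 to -0.04 with the GC correction), led by Mlh3, a MutL homologue, with 34.2 ± 2.69 CPM under JQ1 and 28.0 ± 3.15 CPM under vehicle (0.29 ± 0.08, edgeR adjusted p = 0.0943). In end joining Prkdc, the catalytic subunit of DNA-PK, had 49.8 ± 6.08 and 39.2 ± 4.48 CPM (0.35 ± 0.09, adjusted p = 0.0652), and Xrcc4, the partner of ligase IV, 11.8 ± 1.06 and 9.39 ± 1.75 CPM (adjusted p = 0.188). The Ku subunits Xrcc5 and Xrcc6, which bind the broken ends, had log2 fold changes of -0.04 ± 0.09 and -0.03 ± 0.10. Parp3, a break-dependent ADP-ribosyltransferase, was lowest at -0.38 ± 0.34 (adjusted p = 0.600), a value that ran from -0.66 without JQ1-treated APP replicate 1 to -0.05 without vehicle-treated APP replicate 1. Prkdc passed without JQ1-treated APP replicate 6 (edgeR, adjusted p = 0.0440) or WT replicate 1 (0.0464) and Mlh3 without vehicle-treated APP replicate 2 (0.0493), and neither did without JQ1-treated APP replicate 4 (0.0826 and 0.154).

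Among 98 tested genes of a second list of repair genes that are not members, 1 rose and 1 fell, while 1.08% of all genes passed. The median log2 fold change of the list was 0.04. Shprh, a ubiquitin ligase of damage tolerance, had 62.6 ± 7.34 CPM under JQ1 and 47.2 ± 4.502 CPM under vehicle (0.41 ± 0.09, edgeR adjusted p = 0.0266), with a gene GC content of 41.4%. Mus81, a nuclease of branched DNA, had 22.9 ± 2.23 and 30.2 ± 1.91 CPM (-0.40 ± 0.08, adjusted p = 0.0262) and a GC content of 58.2%. Without replicate 4 neither passed (adjusted p = 0.0692 and 0.0691), and the median of the list was 0.04.

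These changes varied with the base composition of the genes. Over the 56 members, the log2 fold change under JQ1 in APP mice had a Pearson correlation of -0.77 and a Spearman correlation of -0.77 with the GC content of the longest coding transcript. This is a correlation across genes that share the same libraries, so genes are not independent replicates, and over 16770 genes the values were -0.39 and -0.58. Without replicate 4 the members gave -0.74 and -0.73. Longer members also had higher values, with a Pearson correlation of 0.53 for exonic length, and length and GC content were themselves correlated at -0.50.

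The 3 members of lowest GC content were Rif1 (39.3%), Atrx (39.5%) and Atr (40.8%), all called higher. Those of highest GC content were Xrcc1 (59.3%), Ercc2 (59.1%) and Nthl1 (57.9%), of which Ercc2 was called lower. Below 42% GC lay 5 members, with 3 called higher and a median log2 fold change of 0.46, whereas the 1755 genes in that range had a median of 0.22 and 3.30% were called higher. Between 42 and 46% lay 14 members, with 2 called higher (Atm and Rev3l) and a median of 0.15, against 0.14 and 1.20% for all genes of that range. At 54% and over lay 10 members, with 1 called lower and a median of -0.23, against -0.18 and 1.53% for all genes of the range. Without replicate 4 these 3 ranges held 2, 2 and 0 called members with medians of 0.50, 0.16 and -0.20, against 0.20, 0.12 and -0.15 for all genes. Of all genes there, 1.83% and 0.742% were called higher in the first 2 ranges and 0.204% lower in the last.

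The libraries themselves differed in this respect. The slope of a library's log2 level on gene GC content, taken against the mean of all aged libraries, was -0.261 to 0.009 log2 units per 10 points of GC in JQ1-treated APP mice and 0.082 to 0.239 in vehicle-treated APP mice, so that the groups did not overlap. In vehicle-treated WT mice it ran from -0.253 in replicate 1 to 0.090. In young mice it was -0.119 to 0.101 under JQ1 and -0.163 to 0.054 under vehicle, and these groups overlapped.

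**Figure D4:**
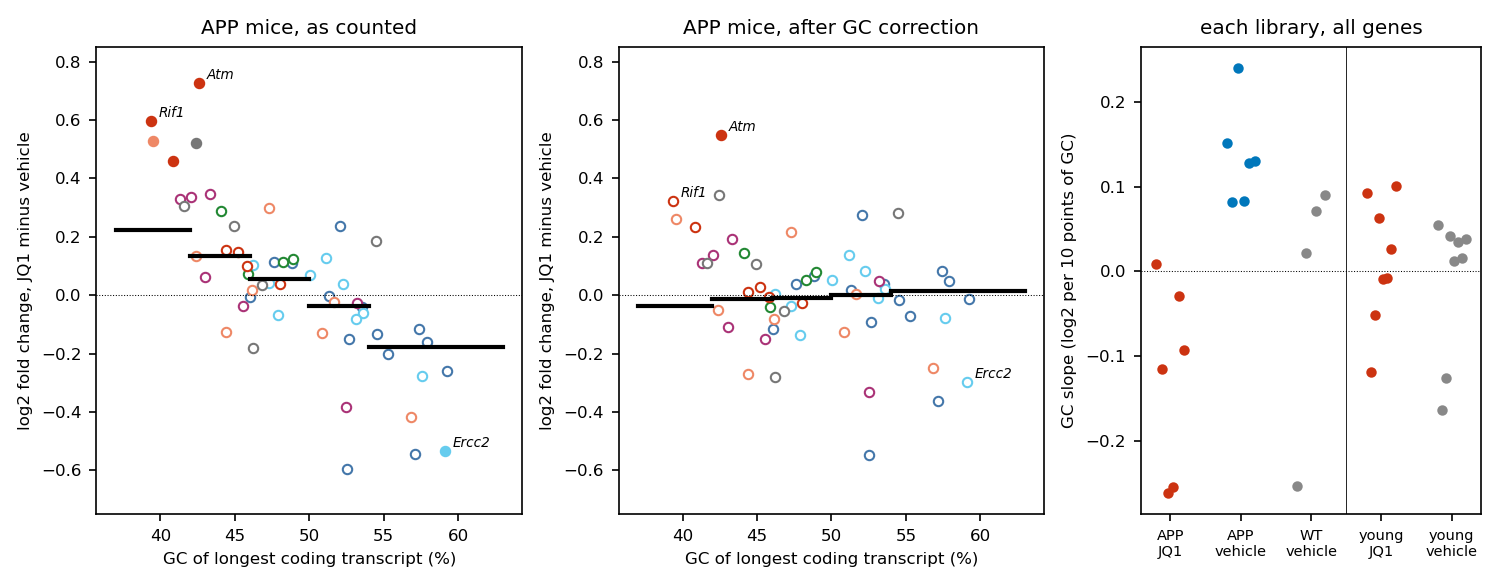
Left and centre, log2 fold change of the 56 members (JQ1 minus vehicle, APP mice) against gene GC content in percent, as counted and after a correction of each library for GC content; filled points had an adjusted p under 0.05, colours are the pathways and black bars are medians of all genes in 5 ranges of GC. Right, GC slope of each library in log2 per 10 points, where the JQ1-treated APP mice lie at or below 0.009 and the vehicle-treated APP mice at or above 0.082.

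When each library was corrected for gene GC content, 1 of the 56 members was called, and all 6 kept the sign of their change. Atm remained called at 0.55 ± 0.11 on the log2 scale (edgeR, adjusted p = 0.0416), and 0.54 ± 0.09 (adjusted p = 0.00649) when length was corrected too. Rev3l gave 0.34 ± 0.09 (adjusted p = 0.213), Rif1 0.32 ± 0.09 (0.271), Atrx 0.26 ± 0.07 (0.240), Atr 0.23 ± 0.11 (0.601) and Ercc2 -0.30 ± 0.09 (0.323), none of which passed. When length was corrected too, Rev3l gave 0.31, Rif1 0.32, Atrx 0.19, Atr 0.14 and Ercc2 -0.28, and again none passed. With replicate number as a block beside the GC correction, Atm did not pass (0.55 ± 0.11, edgeR, adjusted p = 0.117). Without replicate 4 the GC correction left 0 members called, with Atm at 0.56 ± 0.11 (edgeR, adjusted p = 0.0800), an alternative chosen after seeing the data. With all libraries and the GC correction, the 5 members below 42% GC had log2 fold changes of 0.11 to 0.32, while the median of all genes in that range was -0.04. Without replicate 4 these values were 0.14 to 0.32 and -0.03. The correlation of the members' changes with GC content was -0.40 (Pearson) and -0.35 (Spearman) after the correction, and -0.37 and -0.36 without replicate 4. With exonic length the Pearson correlation was 0.42 after the GC correction of all libraries. GC slope and treatment moved together in the APP mice, and whether the slope came from the libraries or from the cells was not tested.

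The second comparison asked how the APP genotype bore on the same genes under vehicle. Of the 56 members 0 passed (2.57% of all genes did), by edgeR and by DESeq2 alike, and 6 had an unadjusted p under 0.05, which is below the 14.4% of all genes. The median log2 fold change was -0.06 against 0.01 over all genes, and 37 of 56 lay below 0. In the same comparison 6 of 8 microglial markers, 1 of 5 astrocyte markers and 1 of 4 tested markers of dividing cells were higher in APP mice, and the summed microglial markers stood at 497.5 to 907.8 CPM in vehicle-treated APP and 211.5 to 236.1 CPM in vehicle-treated WT mice, whose part in the members' values was not tested.

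The largest difference was that of Parp3, with 13.0 ± 6.83 CPM in vehicle-treated APP and 7.22 ± 2.78 CPM in vehicle-treated WT mice (0.84 ± 0.39, edgeR adjusted p = 0.340, and 0.51 without vehicle-treated APP replicate 1). The level of Parp3 in APP replicate 1 was 26.2 CPM, and the other 5 APP vehicle samples had 6.37 to 12.4 CPM. Rif1 was lowest at -0.30 ± 0.14 (adjusted p = 0.320), followed among the called genes by Atrx at -0.25 ± 0.11 (0.280) and Atm at -0.21 ± 0.12 (0.446). Neil2 had 3.39 ± 0.785 and 2.31 ± 0.279 CPM (0.55 ± 0.23, adjusted p = 0.274), and Mlh3 28.0 ± 3.15 and 33.3 ± 1.83 CPM (-0.25 ± 0.09, adjusted p = 0.203). The paper, by contrast, lists Mlh3 as changed between vehicle-treated WT and APP mice and as restored by JQ1. Here Mlh3 passed in neither comparison by edgeR, and DESeq2 called it only for JQ1 against vehicle in APP mice. All 4 mismatch repair members lay below 0. Here the members' changes had a Pearson correlation of 0.46 with GC content. This comparison shares the vehicle-treated APP mice with the first one.

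The third comparison set JQ1-treated APP mice against vehicle-treated WT mice, and shares its samples with both others. Atm and Rev3l passed and were higher, 2 of 56 members against 2.06% of all genes. Atm differed by 0.51 ± 0.12 (edgeR, adjusted p = 0.0379) and Rev3l, at 48.5, 48.1, 47.8 and 45.4 CPM in WT mice, by 0.44 ± 0.10 (adjusted p = 0.0221), and no JQ1 sample overlapped a WT sample for either. The groups did not overlap for 3 members that were higher (2.55% of all genes), the third being Atr, and 1 that was lower, Mutyh (1.17%). Atr, with 20.1 ± 1.67 and 15.4 ± 0.540 CPM, differed by 0.39 ± 0.11 (adjusted p = 0.0689). It passed without the library labelled JQ1-treated APP replicate 4 (adjusted p = 0.0354), where Atm (0.0464) and Rev3l (0.0174) passed too, and 3.84% of all genes did. Leaving out any single WT replicate, or JQ1-treated APP replicate 2, left 0 members called, Atm was also lost without JQ1-treated APP replicate 1, 3 or 5 or vehicle-treated APP replicate 5, and with the GC correction 0 were called, or Rev3l (edgeR, adjusted p = 0.0419) when replicate 4 was left out as well. In this comparison 6 of 8 microglial, 3 of 5 astrocyte and 1 of 4 tested markers of dividing cells were higher and 1 of 5 interneuron markers was lower, and the summed microglial markers of JQ1-treated APP mice ran from 218.0 CPM, in replicate 4, to 837.5 CPM. Their part in the members' values was not tested.

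The last comparison asked whether JQ1 moved the same genes in young WT mice. Of 54 members tested 0 passed (limma on log2 of FPKM + 0.1, 0.00543% of 18420 loci passed), 1 had an unadjusted p under 0.05 (4.65% of all loci did), and the lowest adjusted p was 0.981. The median log2 fold change was 0.001 against 0.003 over all loci, with 27 members above and 27 below 0. Fold changes on this scale understate changes of low genes. The count of 54 leaves out Brca1, which lay below the filter on low values, and Fanca.

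Atm had FPKM of 5.33 to 10.1 with a median of 8.13 under JQ1 and of 7.02 to 11.2 with a median of 9.74 under vehicle in young mice. The groups overlapped, and the log2 fold change was -0.27 ± 0.13 (limma, adjusted p = 0.981), with the sign opposite to that in APP mice. For Atr the difference was -0.01 ± 0.07, for Atrx 0.003 ± 0.09, for Rev3l -0.02 ± 0.06 and for Rif1 0.10 ± 0.08. The difference between the experiments was not tested, since the tables hold different units and were normalised separately.

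**Figure D5:**
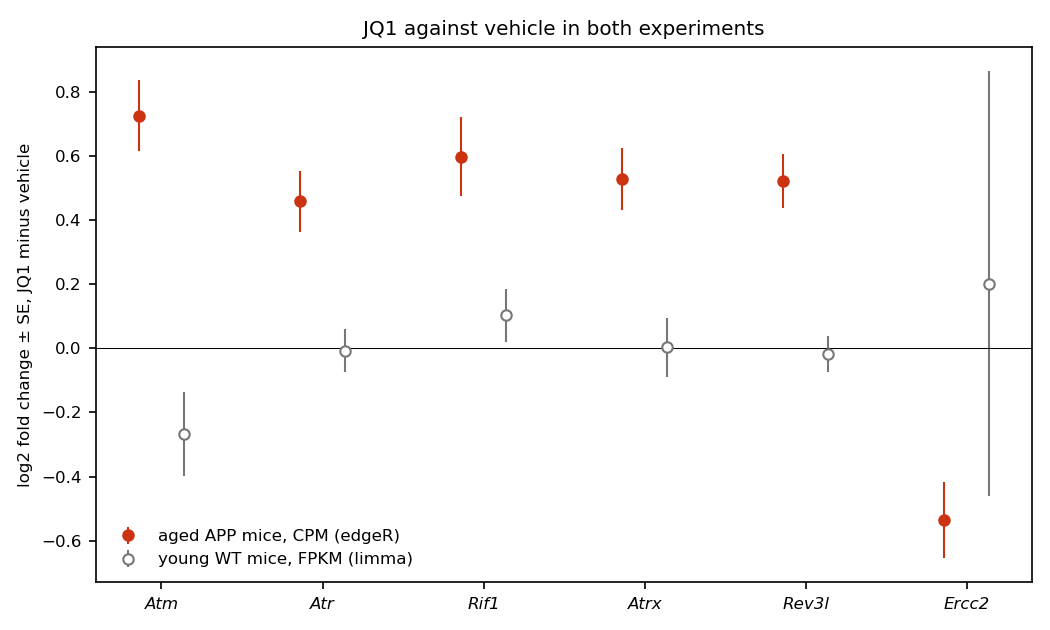
Log2 fold change ± SE of the 6 members between JQ1 and vehicle in aged APP mice (CPM, n = 6 each) and young WT mice (FPKM, n = 8 each); filled points had an adjusted p under 0.05 in their own experiment. Atm stands at 0.73 in APP mice and at -0.27 in young mice, and the SE of Ercc2 in young mice is 0.66.

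Ercc2 could not be judged in young mice. Its locus is joined with the microRNA gene Mir343, and 1 sample of each group had an FPKM of 263.9 and 281.2 while the medians were 22.1 and 22.1, which gave a log2 fold change of 0.20 ± 0.66. Among the other pathways, Xpa, the damage verifier of nucleotide excision repair, had an FPKM of 9.82 ± 1.77 under JQ1 and 12.01 ± 1.53 under vehicle (-0.30 ± 0.10, adjusted p = 0.981 by limma). Ung had 0.624 ± 0.178 and 0.785 ± 0.138 (-0.31 ± 0.15), and Brca2 0.754 ± 0.108 and 0.849 ± 0.0837 (-0.16 ± 0.10). The members' changes had a Pearson correlation of -0.10 with GC content over 54 loci.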

How the data were processed

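RNA of CA1 was measured in 33 labelled samples, of which 32 had values: 16 aged and 16 young. Per the methods, the authors mapped reads on mm10 with STAR (up to 2 mismatches) and assigned them to genes with HTSeq, and the submitters' processing notes also name CASAVA 1.8.2 and TopHat without a role. What was deposited for aged mice are raw counts, not normalized. The deposited FPKM, which the authors made with Cufflinks and Cuffdiff, are scaled to transcript length and depth, so their depth is unknown. The strand setting is not given in the sources used here.

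Counts were normalized with TMM and filtered with filterByExpr, and 16962 genes were tested in edgeR 4.0.16 (quasi-likelihood, robust) in 1 fit of 3 aged groups. FPKM were tested with limma 3.58.1 (trend, robust) on log2(FPKM + 0.1) for 18420 loci with at least 0.5 in at least 8 samples. Adjusted p under 0.05 was the threshold. GC content and length came from GENCODE M21 (mm10), known for 98.9% of genes and 83.2% of loci tested, and promoters from RefSeq (GRCm38.p6). Where a symbol had several loci, the one of highest mean FPKM was used. GC corrections used splines with 5 degrees of freedom, as offsets. Alternatives included DESeq2 1.42.0, other scalings and filters, the replicate block and leaving out samples. Fits were tested on simulated data.

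Members and lists were chosen with earlier results of these data known. Named are members past the threshold, the extremes of each pathway by change or by level, and those of most extreme GC content. The labels do not say how libraries were batched, and p-values measure only the spread between these samples. The software was R 4.3.3 and Python 3.11.15.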

Additional observations from a re-analysis of the deposited data

Results flagged for a closer look

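Among 178 groups of 4 to 8 samples of the named members, 14 held a sample farther from its group than Dixon's 95% limit, and chance alone marks about 1 group in 20. In young mice 2 of these were at the locus of Ercc2, which is joined with Mir343. Its FPKM was 263.9 in JQ1 replicate 7, with the other 7 samples at 20.0 to 63.1, and 281.2 in vehicle replicate 8, with the others at 15.5 to 28.9.

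Vehicle-treated APP replicate 1 was highest for Parp3 (26.2 CPM, others 6.37 to 12.4) and for Fancd2 (23.5 CPM, others 11.9 to 13.1), and JQ1-treated APP replicate 1 was highest for Fancd2 (19.6 CPM, others 9.93 to 12.3) and lowest for Pms2 (20.3 CPM, others 24.5 to 26.8). JQ1-treated APP replicate 2 was highest for Ercc6 (53.7 CPM, others 36.3 to 40.3) and Xpa (12.6 CPM, others 8.87 to 10.2). Ddb2 was highest in vehicle-treated APP replicate 5 (16.2 CPM, others 10.3 to 12.4) and Tdp1 in WT replicate 3 (23.5 CPM, others 17.8 to 18.8).

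In young mice JQ1 replicate 2 was highest for Brca1 (0.394 FPKM, others 0.165 to 0.221) and Brca2 (0.979 FPKM, others 0.601 to 0.775). Rev1 was highest in JQ1 replicate 4 (8.24 FPKM, others 7.27 to 7.73) and Rif1 in vehicle replicate 2 (8.55 FPKM, others 5.72 to 6.73).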

How the results depend on the processing

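For JQ1 against vehicle in APP mice, where 6 members and 184 genes were called, the GC correction left 1 member and 31 genes, the GC and length correction 1 and 42, and the replicate block 4 and 87. The block with the GC correction left 0 and 15, the GC correction without the library labelled JQ1-treated APP replicate 4, chosen after seeing the data, 0 and 13, and leaving out the 3 libraries of lowest GC slope, chosen after seeing the data, 2 and 72. DESeq2 called 749 genes. Leaving out each library in turn gave 3 to 7 members and 65 to 446 genes. For vehicle APP against WT mice 0 members were called under every alternative run, while the 436 genes became 798 with DESeq2, 679 in a fit of the 2 groups, 35 with the block, 38 with the block and the GC correction and 154 to 601 when single libraries were left out. For JQ1-treated APP against WT mice, with 2 members and 349 genes, 0 members were called with the GC correction, the block, or both, and 1 with the GC and length correction, without a filter or without the 3 libraries. Genes called numbered 800 with DESeq2, 227 in a fit of the 2 groups, 21 with the block, 24 with the block and the GC correction, 606 without the 3 libraries and 694 (with 1 member) with the GC correction without JQ1 replicate 4. Single libraries left out gave 0 to 3 members and 11 to 651 genes. In young mice 0 members were called under every alternative run, and the 1 locus called became 0 without a filter or with the block and 2 with the GC correction. Under JQ1 in APP mice the log2 fold change of Msh3 turned to -0.039 with the GC correction, -0.064 with GC and length, -0.036 with the block and GC and -0.0574 with GC without JQ1 replicate 4. That of Trp53bp1 turned to -0.0283, -0.058, -0.0284 and -0.0340 there, and ranged from -0.011 (without JQ1 replicate 2) to 0.107 when single libraries were left out. That of Fancd2 ranged from -0.349 to 0.019 (without vehicle replicate 1), and in vehicle APP against WT mice from -0.102 (again without it) to 0.138. The causes were not tested. Nothing in the labels says that replicate numbers pair samples, and not every same-numbered pair correlated above 0.1. Same-numbered aged samples correlated at -0.52 to 0.34 in their deviations from group means (mean -0.03, 14 pairs), and differently numbered ones at -0.47 to 0.54 (mean 0.01, 70 pairs). In young mice these ranges were -0.07 to 0.10 (mean 0.03, 8 pairs) and -0.11 to 0.09 (mean -0.004, 56 pairs), although replicates 2 and 3 had the lowest GC slopes in both young groups (-0.119 and -0.051 under JQ1, -0.163 and -0.126 under vehicle). Whether same-numbered young samples share a batch was not tested. Depth limits Brca1 and Ung, at about 1 CPM.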
